A study of Mus musculus with 2 samples.

Results

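The NF-κB subunits and their inhibitors were followed through the H3K4me3 peaks of lung group 2 innate lymphoid cells (ILC2s). The 10 genes were taken by symbol from the GENCODE vM21 annotation of GRCm38, which held 21951 protein-coding genes. They are the 5 subunits Nfkb1, Nfkb2, Rel, Rela and Relb and the 5 inhibitors Nfkbia, Nfkbib, Nfkbie, Nfkbiz and Tnfaip3. A peak was taken where it overlapped a gene body or lay within 1000 bp of any annotated transcript start of the gene. This gave 17 of 42126 peaks in the offspring of control mothers, called control offspring here, and 11 of 51610 peaks in those of asthmatic mothers, called OVA offspring after the treatment of the mothers. The question the design puts is whether maternal asthma leaves a mark on the chromatin of ILC2s of the grown offspring.

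H3K4me3, a histone mark found around active transcript starts, was mapped by CATCH-seq, in which chromatin of few cells is cut with MNase and immunoprecipitated without crosslinking. Each library came from about 3000 lung ILC2s of offspring 8 weeks old by the label (7 to 9 weeks in the protocol), and there was 1 library per group, so no value below has a replicate and no test between the groups was possible. Asthmatic mothers had received 100 µg of ovalbumin (OVA) with alum into the peritoneum on days -21 and -7, were bred to untreated males, and then took 500 µg of OVA by the nose at intervals of 2 to 3 days from gestation day 4 to 17. Control mothers received alum and PBS at the same times. The mice were wild-type C57BL/6J. The study's sorting gate for adult lung ILC2s was for CD45, CD90 and ST2 and against lineage markers such as CD3e and CD11b. The study describes these data as 1 experiment with 1 pregnant dam per group, so litter and treatment cannot be told apart, and the number of offspring per library was not given. Of 13 ILC2 marker genes, 10 had a peak at a start in control offspring and 7 in OVA offspring, beside 51% and 42% of all coding genes. Gata3, Il7r and Il5 had one in control offspring alone, as had 19.1% of coding genes with a control start peak. Icos, Klrg1 and Il13 had none in either list. None of 5 T cell, 5 macrophage and 4 fibroblast markers had one in either list. Of 5 epithelial markers, Epcam and Cdh1 had a start peak in control offspring and Sftpb in OVA offspring, and of 4 endothelial markers, Kdr had one in control offspring alone. These markers speak for the presence of a peak only, and the part that other cells play in the widths below was not tested.

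NF-κB is a family of transcription factors that bind DNA as dimers. In resting cells most dimers are held back by inhibitor proteins of the IκB family, and signals from receptors such as the IL-33 receptor ST2 lead to the destruction of the inhibitor and to entry of the dimer into the nucleus. Nfkb1 and Nfkb2 encode precursors that are cut to p50 and p52, while Rela, Rel and Relb encode subunits with a transactivation domain. Nfkbia, Nfkbib and Nfkbie encode the classical inhibitors IκBα, IκBβ and IκBε, Nfkbiz encodes the nuclear protein IκBζ, and Tnfaip3 encodes A20, a ubiquitin-editing enzyme that shuts down the signal upstream of the inhibitors. Several of these genes are themselves targets of NF-κB, so the pathway feeds back on itself. IL-33 is a main activating signal for lung ILC2s.

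The κB site is the sequence these dimers bind, and the windows upstream of the starts were searched for it. The search covered the 250 bases before the principal start, which is the start of the transcript that APPRIS ranks as principal, on both strands of RefSeq GRCm38.p6, for the 10-letter κB consensus. At least 1 match stood before the start of 6 of the 10 genes (60%, exact Clopper-Pearson 95% interval 26.2 to 87.8%), and 8.13% of 21938 windows of all coding genes held one. With 500 bases, the count was again 6 of 10 genes, beside 13.1% of windows. The matches are shown because the peaks described below mostly begin downstream of them. In the windows below, printed from 5′ to 3′ in the direction of the gene and ending 1 base before the start, capitals mark the κB consensus.
Rel, chr11:23770971-23771220, minus strand: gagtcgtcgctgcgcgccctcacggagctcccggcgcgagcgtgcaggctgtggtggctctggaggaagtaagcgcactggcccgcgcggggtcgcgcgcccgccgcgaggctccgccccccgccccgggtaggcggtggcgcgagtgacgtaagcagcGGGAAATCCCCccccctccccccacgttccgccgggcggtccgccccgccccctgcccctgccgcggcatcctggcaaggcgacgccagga
Relb, chr7:19629439-19629688, minus strand: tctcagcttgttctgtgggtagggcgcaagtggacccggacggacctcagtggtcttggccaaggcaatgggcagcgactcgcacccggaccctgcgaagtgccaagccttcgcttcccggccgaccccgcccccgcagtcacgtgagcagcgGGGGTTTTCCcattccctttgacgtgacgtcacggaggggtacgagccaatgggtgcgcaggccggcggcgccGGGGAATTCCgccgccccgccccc
Nfkbia, chr12:55492648-55492897, minus strand: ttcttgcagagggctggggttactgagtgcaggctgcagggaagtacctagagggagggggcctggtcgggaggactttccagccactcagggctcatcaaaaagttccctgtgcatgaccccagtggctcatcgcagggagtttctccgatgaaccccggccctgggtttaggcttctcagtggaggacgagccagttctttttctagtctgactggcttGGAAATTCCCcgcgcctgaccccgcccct
Nfkbie, chr17:45555453-45555702, plus strand: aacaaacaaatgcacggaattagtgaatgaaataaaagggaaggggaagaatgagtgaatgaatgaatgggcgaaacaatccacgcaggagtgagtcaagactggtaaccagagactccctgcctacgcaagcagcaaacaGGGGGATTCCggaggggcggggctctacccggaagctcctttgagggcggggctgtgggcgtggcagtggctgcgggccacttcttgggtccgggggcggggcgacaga

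The stretch before Rel, GGGAAATCCCC, lay 81 to 91 bases upstream of the start and was the only one of 9 stretches in 6 genes that a control peak covered. No OVA peak covered any of the 9. The share of such stretches that peaks cover over all coding genes was not computed. Start peaks covered the principal start itself in 41.3% of coding genes with a start peak in control offspring and 18.3% in OVA offspring. Relb held GGGGTTTTCC 88 to 97 bases upstream and GGGGAATTCC 15 to 24 bases upstream, Nfkbia held GGAAATTCCC 20 to 29 bases upstream, and Nfkbie held GGGGGATTCC 100 to 109 bases upstream. Before Nfkb2 stood GGGAATTCCCC, 92 to 102 bases upstream, and GGGGCTTTCC, 65 to 74 bases upstream, both within annotated exons. Before Tnfaip3 stood GGGACACCCC, 116 to 125 bases upstream, and GGAAATCCCC, 3 to 12 bases upstream. The windows of Nfkb1, Rela, Nfkbib and Nfkbiz held no match to the consensus. A match is a description of the letters and was not tested as a binding site.

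**Figure D1:**
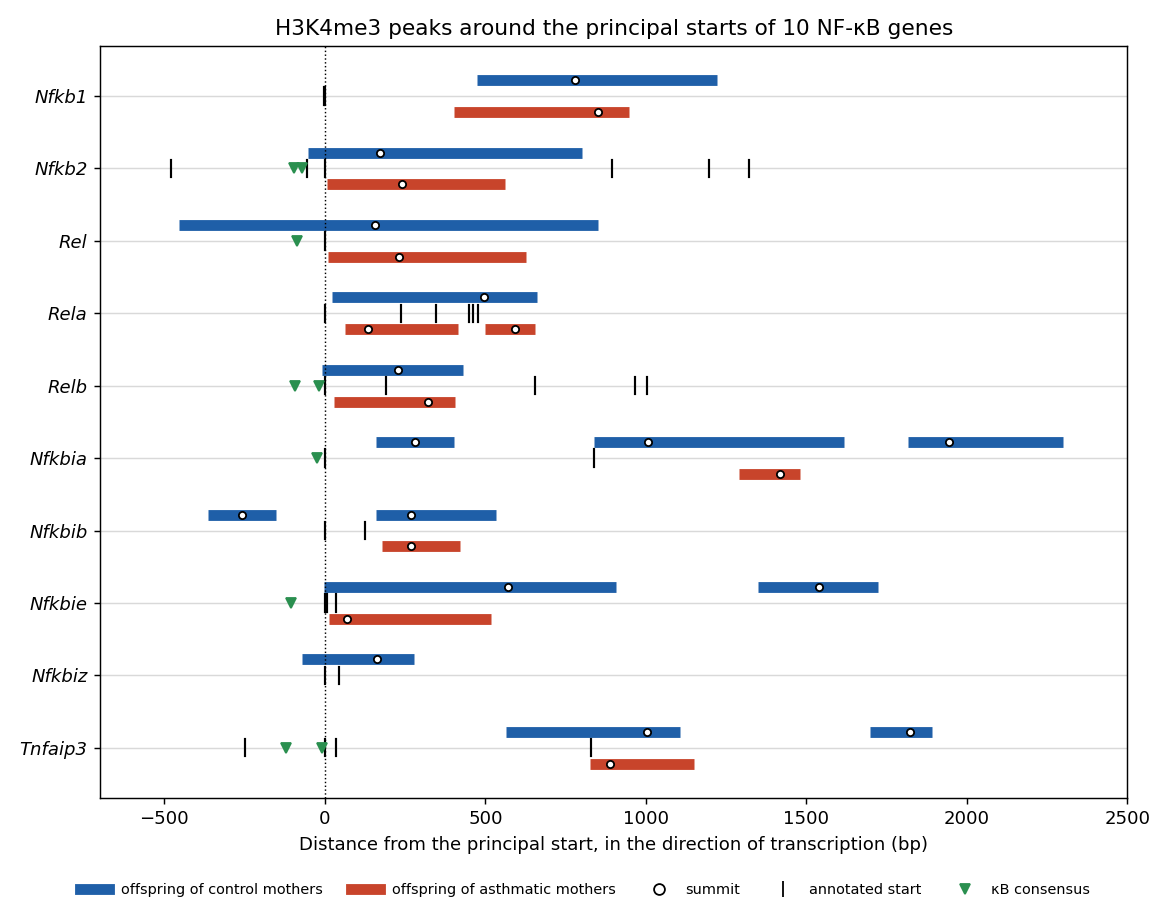
Peaks around the principal start of each gene, with the distance from the start in bp on the x axis, 1 row per gene, bars for peaks of offspring of control mothers (blue) and asthmatic mothers (red), circles for summits, ticks for annotated starts and triangles for κB matches. The blue bars of 5 genes cross the principal start and no red bar does; the peaks at the internal start of Nfkbiz lie outside the range drawn.

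All 10 genes had at least 1 peak at a start in both lists. Over all coding genes, 51% had a start peak in control offspring, 42% in OVA offspring and 41.3% in both. With the principal start alone, the counts were 10 of 10 genes in control offspring and 8 of 10 in OVA offspring, where the peaks of Nfkbia and Nfkbiz lay too far away, beside 48.1% and 39.3% of coding genes. The 17 control peaks comprised 15 at starts and 2 further into gene bodies, beside 62.8% at starts over all coding genes, and the 11 peaks of OVA offspring all lay at starts, beside 48.5%. Of the 17 control peaks, 7 in 5 genes overlapped no OVA peak, beside 29% of the 20309 control peaks taken by the same rule over all coding genes. Of the 11 OVA peaks, 0 lacked an overlap, beside 4.37% of OVA start peaks and 26.4% of OVA peaks in bodies or at starts. The 75 bases around each summit occurred nowhere else in the 21 chromosomes searched, and repeat-masked bases made up at most 9.07% of a control peak and 15.4% of an OVA peak.

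The highest peaks lay downstream of the starts. The summit of the highest start peak was downstream of the principal start in 10 of 10 genes in both lists, beside 81.7% and 81.6% of coding genes with a start peak. The principal start itself was covered in 5 genes in control offspring, namely Nfkb2, Rel, Relb, Nfkbie and Nfkbiz, beside 41.3% of coding genes with a start peak in that list. In OVA offspring it was covered in 0 of the 10 genes, beside 18.3%. Of the 11 pairs of overlapping peaks, 9 had the OVA peak wholly inside the control peak, beside 71.4% of 11242 such pairs over all coding genes. Its upstream edge came later in 10 of 11 pairs, beside 84.1%, and its downstream edge earlier in 10 of 11, beside 84.3%. The median distance between the summits of the 11 pairs was 92 bp, and 67 bp over the 11242 pairs. For the 5 genes with 1 overlapping start peak in each list it was 73 bp, and 61 bp over 5435 such coding genes.

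To compare widths, peaks at most 1000 bp apart were joined, and the value of a gene was its widest joined domain with a peak at a start. The subunits had a median width of 747 bp in control offspring and 556 bp in OVA offspring, while the inhibitors had 1510 and 326 bp. Coding genes with a start peak in both lists had medians of 719 and 413.5 bp. Domains at least 1.5 times as wide in control offspring were found for 2 of 5 subunits and 5 of 5 inhibitors, 7 of 10 genes in all, beside 50.5% of 9064 coding genes. The reverse was found for 0 of the 10 genes, beside 1.17%. The median ratio of control to OVA width was 1.37 for the subunits (range 1.08 to 2.11), 3.67 for the inhibitors (2.83 to 11.3) and 1.51 for the coding genes. Most coding genes, 92.2%, were wider to some degree in control offspring, so the direction alone says nothing particular about these genes. Without joining, the widest single peak was at least 1.5 times as wide in control offspring for 8 of the 10 genes, beside 53.3% of coding genes. On single peaks the median ratio was 1.53 for the subunits (range 1.17 to 2.11), 1.79 for the inhibitors (1.53 to 4.13) and 1.55 for the coding genes, so the ranges of the subunits and inhibitors overlapped, unlike those of joined domains.

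**Figure D2:**
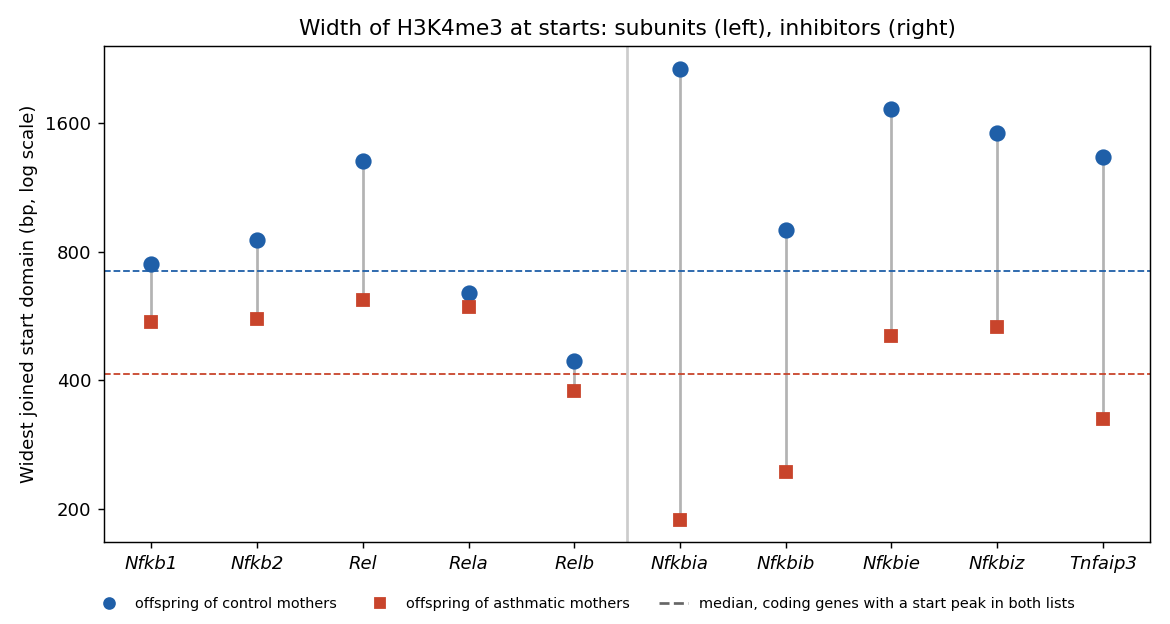
Width in bp, on a log scale, of the widest joined start domain of each gene in offspring of control mothers (blue circles) and asthmatic mothers (red squares), 1 library each and no error bars. All 10 circles lie above their squares, and the gap is smallest for Rela (639 and 593 bp) and largest for Nfkbia (2141 and 189 bp); dashed lines mark the medians of coding genes, 719 and 413.5 bp.

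Ranks were taken within each list, since the authors' fold, −log10 p and −log10 q are not scaled between libraries. A rank is the percentile of a gene among coding genes with a start peak in the same list, by the highest −log10 q of its start peaks or by its joined width. By −log10 q the median percentile of the 10 genes was 31.6 in control offspring and 45.6 in OVA offspring, and 3 and 4 genes stood above the middle of the list. By width the medians were 82.4 and 64.6, and 8 and 6 genes stood above the middle. Genes above the middle by width and below it by −log10 q numbered 6 of 10 in control offspring, beside 22.4% of coding genes, and 4 of 10 in OVA offspring, beside 18.3%. By −log10 q, 5 of the 10 genes ranked higher in control offspring, beside 58.3%, and 2 of 10 when only genes in both lists were ranked, beside 49.3%. Among the 10000 peaks of highest −log10 p of each list, 4 of the 10 genes had a start peak in control offspring, beside 32.3% of coding genes, and 2 in OVA offspring, beside 9.34%. The median percentiles by width were 58.9 and 68.7 for the subunits and 96.0 and 34.7 for the inhibitors, in control and OVA offspring in that order. These percentiles depend on joining, since each inhibitor's control domain joined more than 1 peak and each subunit's was 1 peak. Percentiles of single peaks were not computed.

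**Figure D3:**
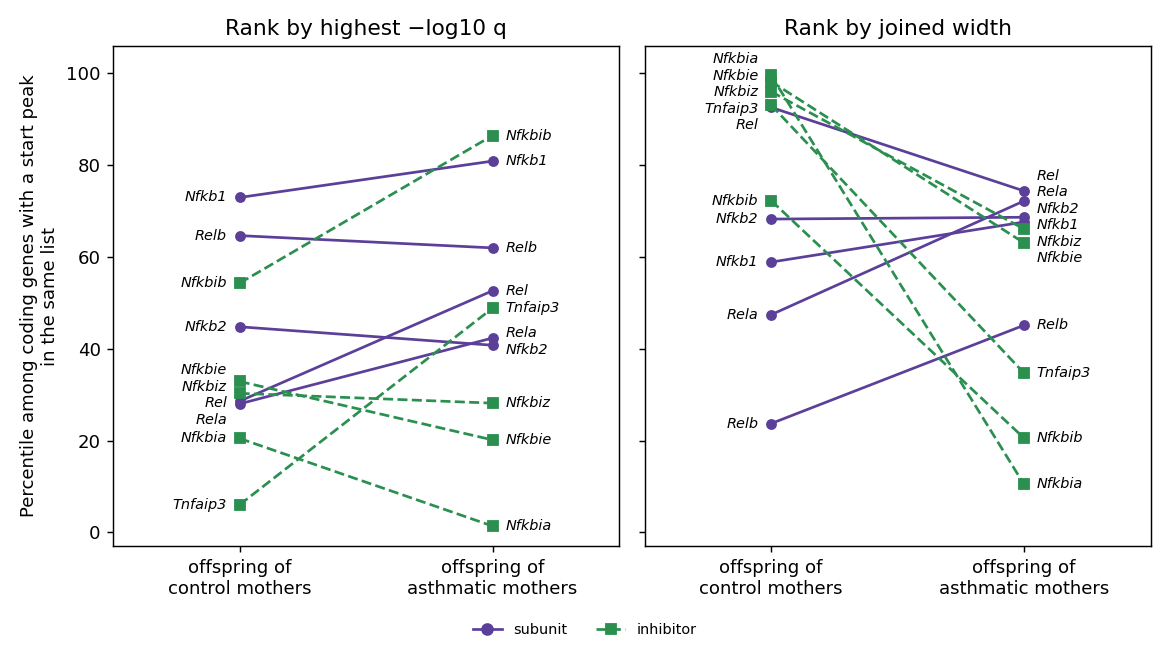
Percentile of each gene among coding genes with a start peak in the same list, by highest −log10 q (left) and by joined width (right), with a line joining the 2 libraries for each subunit (purple circles) and inhibitor (green squares). By width the 5 inhibitors run from 72.3 to 99.6 in offspring of control mothers and from 10.4 to 66.1 in offspring of asthmatic mothers.

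Among the subunits, Nfkb1 (ENSMUSG00000028163.17, chr3:135584655-135691547, minus strand), the source of p50, ranked highest in both lists by −log10 q among the 5. Its control peak ran from 475 to 1221 bp past the principal start, 747 bp, with a summit in intron 1 at 778 bp. The OVA peak ran from 403 to 949 bp, 547 bp, with its summit 851 bp past the start, also in intron 1. Nfkb1 was the only gene of the 10 whose paired peak reached nearer to the start in OVA offspring, and neither peak covered the start itself. The −log10 q was 17.2, the 73.0th percentile, in control offspring and 11.2, the 80.9th percentile, in OVA offspring. The folds over the caller's background were 5.51 and 5.63.

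Nfkb2 (ENSMUSG00000025225.15, chr19:46304320-46312385, plus strand), the source of p52 in the non-canonical pathway, had 1 peak in each list. The control peak ran from 51 bp before to 801 bp past the principal start, 853 bp, and that of OVA offspring from 6 to 561 bp past it, 556 bp, a ratio of 1.53. Both summits lay in intron 1, 173 and 240 bp past the start. The percentiles by −log10 q, 44.8 and 40.8, and by width, 68.3 and 68.7, were close in the 2 libraries, which have no replicate error to set them against. A start of the lncRNA gene AC114539.1 on the other strand lay 4 bp beyond the control peak and 244 bp beyond the other, so part of the mark at the downstream side cannot be told apart from the neighbour's.

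Rel (ENSMUSG00000020275.9, chr11:23736847-23770970, minus strand), which encodes c-Rel, had the widest domain of the subunits in both lists. Its single control peak of 1304 bp ran from 453 bp before the only annotated start to 850 bp past it and covered all 250 bases of the window printed above, the κB stretch included. The OVA peak of 618 bp ran from 9 to 626 bp past the start and covered none of the window, a ratio of 2.11. Both summits lay in the 5′ untranslated part of exon 1, 157 and 230 bp past the start. By −log10 q the gene stood at the 28.6th percentile (10.7) in control offspring and at the 52.6th (8.34) in OVA offspring. By width it stood at the 92.6th and 74.4th.

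Rela (ENSMUSG00000024927.8, chr19:5637483-5648130, plus strand), the p65 subunit of the canonical dimer, had the smallest ratio of widths, 1.08. One control peak ran from 22 to 660 bp past the principal start, 639 bp. The same stretch held 2 peaks in OVA offspring, from 63 to 415 bp and from 500 to 655 bp, which joined to 593 bp. The control summit lay in intron 1, 497 bp past the start, nearer to the second of these peaks (summit at 593 bp) than to the first (135 bp, 5′ untranslated exon 1). Rela was the only gene of the 10 with 2 start peaks in OVA offspring, where 22.7% of coding genes with a start peak had 2 or more. Counted without joining, its ratio was 1.81.

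Relb (ENSMUSG00000002983.17, chr7:19606217-19629438, minus strand), the partner of p52, had the narrowest control domain of the 10 genes and the highest fold of the subunits. The control peak of 443 bp ran from 10 bp before to 432 bp past the start, with its summit in the coding part of exon 1 at 229 bp. The OVA peak of 378 bp ran from 28 to 405 bp, with its summit in intron 1 at 321 bp, a ratio of 1.17. The folds were 8.07 and 6.67 and the −log10 q values 15.8 and 9.08, the 64.7th and 62.0th percentiles. By width it stood at the 23.7th and 45.1st percentiles.

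Among the inhibitors, Nfkbia (ENSMUSG00000021025.8, chr12:55489410-55492647, minus strand), which encodes IκBα, itself a well-known target of NF-κB, had the largest ratio of widths. The control list held 3 peaks across the short gene, with 31, 30 and 26 fragments at their summits. The first ran from 160 to 403 bp past the start with its summit in the coding part of exon 1 and a −log10 q of 9.26. The second ran from 839 to 1618 bp, with its summit in intron 2 and a −log10 q of 8.48, and begins beside a second annotated start, that of the retained-intron transcript Nfkbia-202 at 837 bp. The last ran from 1818 to 2300 bp, with its summit in intron 4 and a −log10 q of 6.06. Joined, they spanned 2141 bp, the 99.6th percentile by width, of which peaks covered 1507 bp. The gene held 1 OVA peak of 189 bp, from 1291 to 1479 bp past the start, within the second control peak and with its summit in coding exon 3. Its −log10 q of 3.41 stood at the 1.37th percentile of genes and at the 2.49th of all peaks in that list, and its fold was 3.44. The ratio of widths was 11.3, and 4.13 without joining.

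The first and last control peaks of Nfkbia overlapped no peak in OVA offspring. Of 805 control start peaks with a −log10 q within 0.5 of the first peak's, 39.5% (95% interval 36.1 to 43.0%) likewise overlapped none, and of 765 like the last, 68.2%. A peak that misses the caller's threshold is not listed, so the absence of a peak is not an absence of the mark. At the highest start peak, which lay at different places in the 2 lists, the fragments solved from fold and p were 31 (Poisson 95% interval 21.1 to 44.0) in control offspring and 15 (8.40 to 24.7) in OVA offspring, over backgrounds of 6.40 and 3.65. With a −log10 q of at least 5, no OVA peak was left at Nfkbia.

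Nfkbib (ENSMUSG00000030595.15, chr7:28758251-28767512, minus strand), which encodes IκBβ, shares a divergent start region with Sirt2, the gene of a NAD-dependent deacetylase, whose principal start lies 127 bp away on the plus strand. The control list held 2 peaks there, 1 from 159 to 534 bp past the principal start of Nfkbib and 1 from 151 to 364 bp before it, and the latter contains an annotated start of Sirt2. Joined, they spanned 899 bp. The OVA list had 1 peak of 245 bp there, from 177 to 421 bp past the start, a ratio of 3.67, or 1.53 without joining. The 2 downstream summits, both in the coding part of exon 1, were 2 bp apart, the closest of the 11 pairs. The downstream peak had a −log10 q of 14.3, the 54.3rd percentile, in control offspring and 12.0, the 86.5th percentile, in OVA offspring, the highest rank of any of the 10 genes in that list. Beyond the downstream peak, the control width came from the upstream peak on the Sirt2 side and the gap between them, and peaks with a −log10 q like its own, 7.56, lacked an overlap in 59.6% of 907 cases.

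Nfkbie (ENSMUSG00000023947.8, chr17:45555703-45563169, plus strand), which encodes IκBε, had a control start peak of 910 bp, from 1 bp before to 908 bp past the start. The OVA start peak was 508 bp wide, from 12 to 519 bp. The control summit lay in the coding part of exon 1 at 570 bp and the other in its 5′ untranslated part at 70 bp. A second control peak of 374 bp lay in intron 1, from 1350 to 1723 bp past the start, with a −log10 q of 3.73, and joined the first to a domain of 1725 bp, the 98.2nd percentile. The ratio of widths was 3.40, and 1.79 without that weak peak. The percentiles by −log10 q were 32.9 (11.3) and 20.1 (5.97).

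Nfkbiz (ENSMUSG00000035356.17, chr16:55811375-55838899, minus strand), which encodes the nuclear IκBζ, was the only gene of the 10 with 2 separate start domains, and only in control offspring. It has a principal start, of Nfkbiz-201, and an internal coding start, of Nfkbiz-204, 16761 bp downstream. The 250 bases before each are printed because no κB match stood in either. Capitals mark CG dinucleotides, of which the first window held 13, the 61.0th percentile of all windows, and the second 29, the 92.4th, beside a median of 9.
Nfkbiz-201, chr16:55838900-55839149, minus strand: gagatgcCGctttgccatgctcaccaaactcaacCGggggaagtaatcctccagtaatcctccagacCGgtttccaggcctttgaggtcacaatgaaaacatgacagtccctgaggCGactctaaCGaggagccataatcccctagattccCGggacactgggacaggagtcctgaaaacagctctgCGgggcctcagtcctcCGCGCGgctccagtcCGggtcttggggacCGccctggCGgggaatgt
Nfkbiz-204, chr16:55822139-55822388, minus strand: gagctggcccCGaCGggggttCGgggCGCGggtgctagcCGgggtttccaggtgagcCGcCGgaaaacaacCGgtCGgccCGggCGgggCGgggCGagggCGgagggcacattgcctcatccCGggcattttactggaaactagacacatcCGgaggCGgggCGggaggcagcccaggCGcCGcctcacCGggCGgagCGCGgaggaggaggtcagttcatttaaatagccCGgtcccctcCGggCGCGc

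At the principal start of Nfkbiz the control list had a peak of 350 bp, from 70 bp before to 279 bp past it, with a summit in the 5′ untranslated part of exon 1. Its −log10 q was 9.76 and its fold 6.72, and 18 fragments (Poisson 95% interval 10.7 to 28.4) stood over a background of 1.83, the smallest among the control peaks of the 10 genes. OVA offspring had no peak there, as had 36.9% (95% interval 33.5 to 40.4%) of 781 control start peaks of like −log10 q. Both lists had a peak at the internal start. The control peak of 1014 bp had its summit 258 bp past that start and a −log10 q of 10.8, and with a further peak of 269 bp in intron 3 (−log10 q 5.96) it joined to 1510 bp. The OVA peak was 534 bp wide, with its summit 346 bp past the internal start and a −log10 q of 6.50. Both summits lay in coding sequence that is exon 3 of Nfkbiz-201 and exon 1 of Nfkbiz-204. The ratio of widths there was 2.83, and 1.90 without joining. Separate start domains are uncommon, with 4.69% of coding genes having 2 or more in the control list, and at least 1 of them lacked a peak in OVA offspring in 51.8% of those 525 genes.

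**Figure D4:**
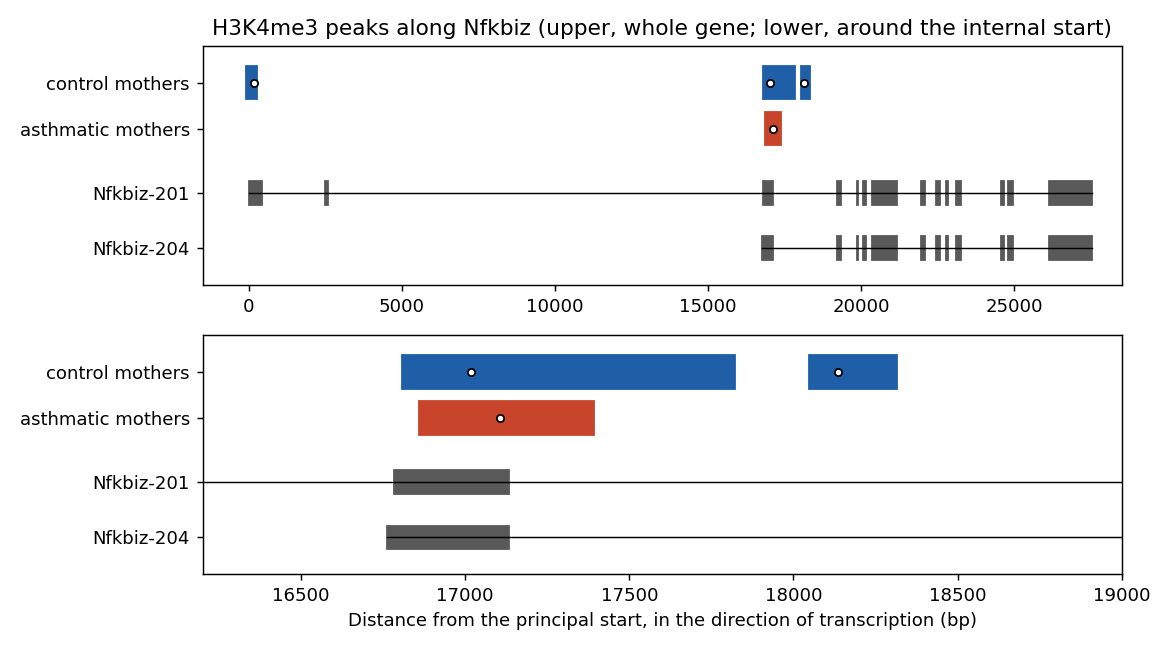
Peaks along Nfkbiz in offspring of control mothers (blue) and asthmatic mothers (red) above the exons (grey) of Nfkbiz-201 and Nfkbiz-204, with the distance from the principal start in bp on the x axis, for the whole gene (upper) and around the internal start (lower); circles mark summits. A blue peak of 350 bp stands at the principal start with no red peak under it, and at the internal start the blue peak of 1014 bp contains the red peak of 534 bp.

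Tnfaip3 (ENSMUSG00000019850.11, chr10:19000910-19015657, minus strand), which encodes A20, had no peak over its principal start in either list. The peaks lay instead about an internal coding start 828 bp downstream, within intron 1 of the principal transcript. The control peak ran from 563 to 1106 bp past the principal start, 544 bp, and that of OVA offspring from 826 to 1151 bp, 326 bp. A second control peak of 194 bp, from 1699 to 1892 bp with a −log10 q of 3.48, joined the first to 1330 bp. Peaks like this second one lacked an overlap in 87.6% of 258 cases. The ratio of widths was 4.08, and 1.67 without joining. Tnfaip3 was the only gene of the 10 with a higher −log10 q in OVA offspring, 7.81 against 6.12 on scales that are not matched between the lists, and its percentile was 48.9 there and 6.02 in control offspring. The control background at this place, 7.88 fragments, was the highest at any of the 10 highest start peaks, and the fold was 3.38 there and 4.76 in OVA offspring.

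The deposited lists give no read totals, so the depth behind the values was read from fragments solved from the fold and −log10 p of each peak. Over the peaks of the 10 genes, the fragments at the summit ran from 18 to 45 (median 26) in control offspring and from 14 to 28 (median 17) in OVA offspring. Over 1277 control and 1007 OVA start peaks sampled from the lists, the medians were 24 and 16. At the highest start peak of each gene, control offspring had more fragments in 10 of 10 genes, beside 97.2% of 9064 coding genes with a start peak in both lists. The ratio ran from 1.26 to 2.07 (median 1.60), and its median over those coding genes was 1.63. The Poisson intervals, which cover counting error only, overlapped in 10 of 10 genes, beside 96.6%. The caller's background at the same places was also higher in control offspring in 10 of 10 genes, beside 99.5%, by 1.45 to 2.01 times (median 1.79, and 1.49 over those coding genes). The part of this difference in the widths and in the presence of peaks was not tested.

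**Figure D5:**
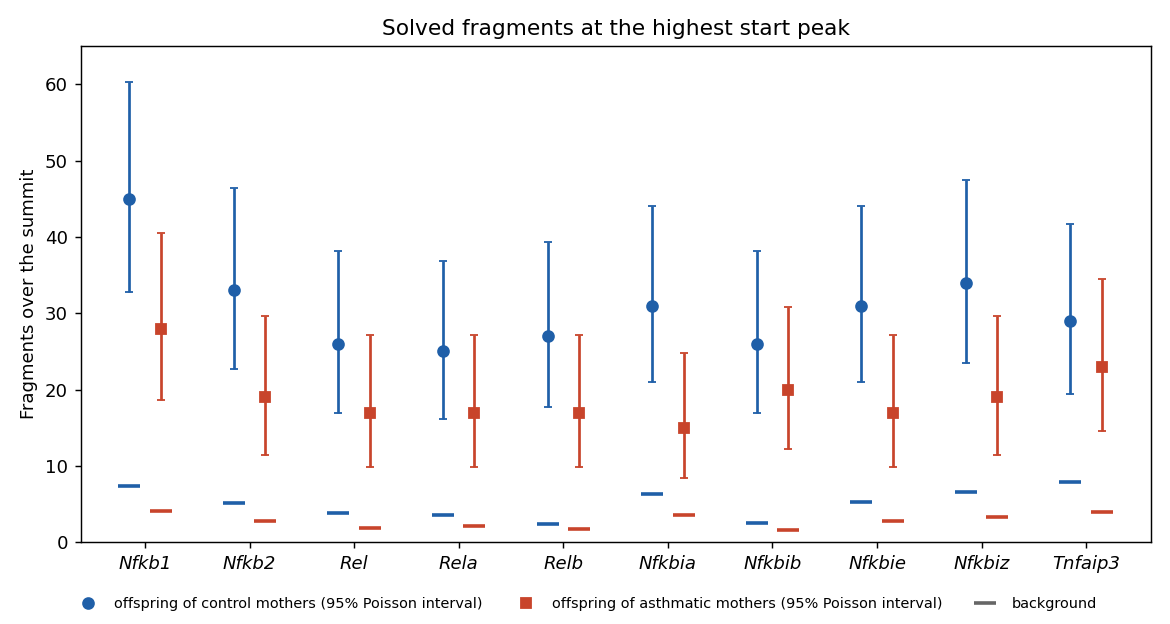
Fragments over the summit of the highest start peak of each gene in offspring of control mothers (blue) and asthmatic mothers (red), solved from the deposited fold and −log10 p, with Poisson 95% intervals, and the caller's background in fragments as dashes. Blue lies above red in all 10 genes while the intervals overlap, from 45 and 28 fragments at Nfkb1 to 29 and 23 at Tnfaip3, as blue was higher in 97.2% of coding genes with a start peak in both lists.

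The other genes of the pathway were taken as a list of 30 kinases, adaptors, ubiquitin ligases and further regulators. All 30 had a start peak in control offspring and 26 in OVA offspring, beside the 51% and 42% of coding genes above. The control list alone held 4 of the 30, beside 19.1% of the 11199 coding genes with a control start peak and 9.73% of all coding genes. These were Ikbkg, the regulatory subunit of the IκB kinase, Map3k14, the kinase that starts the non-canonical pathway, Traf3, its negative regulator, and Tnip1, a partner of A20. None of the 30 had a peak in OVA offspring alone, beside 1.69% of coding genes with an OVA start peak and 0.711% of all. Of the 26 with a domain in both lists, 13 were at least 1.5 times as wide in control offspring and 0 the reverse, beside the 50.5% and 1.17% above.

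In that list the ratio was highest for Nfkbid, which encodes a further nuclear IκB protein, with 1849 and 229 bp in control and OVA offspring, a ratio of 8.07. Birc2, a ubiquitin ligase at the TNF receptor, followed with 1090 and 248 bp, a ratio of 4.40. Then came the adaptor Traf2 with a ratio of 3.35 and the ligase Birc3 with 3.14. Domains of Traf6, 642 and 675 bp, and Irak4, 832 and 874 bp, were slightly wider in OVA offspring. Of the catalytic subunits of the IκB kinase, Ikbkb stood at the 98.6th and 94.8th percentiles by −log10 q, with widths of 794 and 454 bp, and Chuk had widths of 457 and 355 bp.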

How the data were processed

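The data were 2 H3K4me3 CATCH-seq libraries of lung ILC2s, 1 per group. The authors trimmed the reads with Trim Galore and Cutadapt, used Bowtie 2 for alignment to mm10 (GRCm38) and Sambamba to remove duplicates. The peak caller, its threshold and its use of the input library are not given in the sources used here, and the reporting summary says peak calling was not done, yet each library has a deposited list. The deposited score is 10 times the −log10 q rounded down. The deposited fold is a ratio of summit signal to the local background. Per peak, the authors' −log10 p and −log10 q describe each peak against that background within 1 library.

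Peaks were read on GRCm38, counted from 1, with GENCODE vM21 starts and exons. Peaks within 1000 bp of a start were start peaks, peaks at most 1000 bp apart were joined, and 1 bp of overlap counted as shared. Fragments were solved from fold and p with a Poisson model and 1 added to signal and background, which recovered −log10 p within 0.005 for 2107 of 2107 sampled control peaks and 2581 of 2581 of the other list. They are derived, not the authors', and assume calls without a control sample. Counts of members that a call rule gives stand beside the share of coding genes, peaks or pairs that it calls, where one was computed. Intervals printed with some of the shares are exact Clopper-Pearson 95% intervals, for counting error only. Genes named were all 10 members, genes of the pathway list and the markers, and a domain was wider where widths differed by 1.5 times or more. Members and lists were chosen with earlier results of these data known. The joining, distances and fragments were tested on simulated data, and the motif search was not. Sequences came from RefSeq GRCm38.p6. Scripts ran in Python 3.11.15 (matplotlib 3.10.9, pysam 0.24.0, scipy 1.17.1, pandas 2.3.3, numpy 2.4.6).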

Additional observations from a re-analysis of the deposited data

How the results depend on the processing

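No paired analysis was possible because each group had 1 library, and no replicate could be left out. Of the alternatives to the distance, joining, threshold and ranking, 51 values of the main counts and medians stayed within 1.5 times and 8 did not, and none reversed. Control peaks away from starts numbered 2, and 4 with starts within 500 bp, 0 within 2000 bp and 1 with a −log10 q of at least 5. Among the 10000 peaks of highest −log10 p of each list, 4 genes in control offspring and 2 in OVA offspring had a start peak, in place of 10 and 10. The shares of coding genes at that cut were 32.3% and 9.34%. Genes above the middle of the list numbered 2 in place of 4 in OVA offspring when ranked by fold, and 8 in place of 3 in control offspring when ranked by width. When only genes in both lists were ranked, 2 in place of 5 genes ranked higher in control offspring, beside 49.3%. Of the ratios of single genes, 50 stayed within 1.5 times and 9 did not. Among the 9 were Tnfaip3 at 2.26 and Nfkbib at 2.41 counting only covered bases. With a −log10 q of at least 5, Tnfaip3 went from 4.08 to 1.67 and Nfkbie from 3.40 to 1.79. The median ratio of the members went from 2.47 to 1.67 at that cut, which counted as within 1.5 times. The ratio of Nfkbia could not be computed at that cut, where no OVA peak was left. The causes were not tested. With about 16 to 24 fragments at a typical start peak, the absence of a peak bounds the mark only loosely, and with 1 library per group no difference can be set against replicate error.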
